A study of Mus musculus with 9 samples.

Results

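Liver gene expression in mice given a high-fat diet with hyodeoxycholic acid (HDCA) was compared with that in lean mice on a normal diet, to describe how treated livers still differed from lean ones. The members are the 6 libraries that the labels place in these groups, 3 treated and 3 lean, of 9 libraries in the series, and every gene in the deposited count tables except the 5 classes of reads assigned to no gene. All mice were wild type; their strain and sex are not given in the labels. The ND livers came from mice on a normal diet, the HFD livers from mice on a 60% high-fat diet, and the HFD_HDCA livers from mice on that diet with 0.25% HDCA. Feeding began at 8 weeks of age and lasted 12 weeks in every group, and livers were collected in the fed state. The 3 HFD livers entered the same statistical fit, and their values stand beside the comparison where they help to place it. HFD_HDCA and ND mice differed both in dietary fat and in HDCA, and these cannot be told apart in this comparison alone. The 3 livers of a group are labelled as separate samples, with nothing said of cages or litters, so the p-values measure the spread between these samples.

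HDCA is a secondary bile acid, formed from primary bile acids by gut bacteria. Bile acids are made from cholesterol in hepatocytes, and their synthesis and export are adjusted by the nuclear receptor FXR. The nuclear receptor PPARα senses fatty acids in the liver and raises transcription of the genes for fatty acid oxidation, whereas SREBP1 raises transcription of the genes for fatty acid synthesis when insulin is high. The receptors CAR and PXR respond to foreign compounds and to some bile acids by raising cytochromes P450 and conjugating enzymes.

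Between 16994353 and 18731596 reads fell on genes in the ND libraries and between 17059063 and 17966782 in the HFD_HDCA libraries. At this depth 3 reads, the limit that a count of 0 allows, corresponded to 0.156 to 0.182 CPM in these 6 libraries (CPM are counts scaled to the effective library size), for counting error only. Reads aligned to more than 1 place made up 17.92 ± 1.44% of reads in ND and 15.27 ± 0.71% in HFD_HDCA (SD, n = 3 per group; exact two-sided permutation p = 0.1, the smallest that 3 against 3 can give). The first principal component of all 9 libraries (30.3% of the variance) placed the HFD_HDCA libraries at 23.7 to 37.2 and the ND libraries at -27.3 to -21.6. HFD_HDCA 1 stood apart from its group on the third component (14.3%), at 33.7 against -25.5 and -19.3. It held 3371 CPM of Saa1, encoding the acute phase protein serum amyloid A, against 23.4 and 38 CPM in the other HFD_HDCA libraries and 29.2, 22.8 and 29.7 CPM in ND. All 14 hepatocyte markers passed the filter on low counts, with a summed level of 123843 to 136258 CPM in ND and 153508 to 162246 CPM in HFD_HDCA.

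Of 12587 genes tested, 815 (6.47%) differed between HFD_HDCA and ND by edgeR's quasi-likelihood test at a Benjamini-Hochberg adjusted p under 0.05, and these are the genes said to rise or fall below. They comprised 460 genes (3.65%) that rose and 355 (2.82%) that fell with HFD_HDCA. The median size of the called changes was 0.84 on the log2 scale, or 1.79-fold, and 167 genes rose and 128 fell by more than 2-fold. In 814 of the 815 the 3 HFD_HDCA libraries lay wholly above or below the 3 ND libraries, as did 33.9% of all genes tested, 17.8% above and 16.1% below. In the same fit, HFD without HDCA differed from ND in 120 genes (0.953%), 60 in each direction (0.477%), and HFD_HDCA differed from HFD in 428 genes (3.4%), 210 higher (1.67%) and 218 lower (1.73%). The HFD libraries did not overlap those of ND in 20.1% of genes, and lay wholly below them in 9.2%. These comparisons share libraries, so their counts are given side by side only. At an unadjusted p under 0.05 (edgeR), 26.1% of all genes tested differed between HFD_HDCA and ND, and 11.5% between HFD and ND. These shares of all genes, adjusted and unadjusted, are the background for the list counts below. Lists with few called genes are described by those genes only. The median log2 fold change of all genes tested between HFD_HDCA and ND was 0.03. The count of called genes ranged from 196 without ND 1 to 1213 without HFD_HDCA 2 when 1 library was left out. It was 308 without HFD_HDCA 3, 332 without ND 3 and 344 without ND 2. Of 111 called genes named in this text, 57 stayed called without ND 1, 72 without HFD_HDCA 3, 76 without ND 3, 80 without ND 2 and from 96 to 109 without each of the others.

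**Figure D1:**
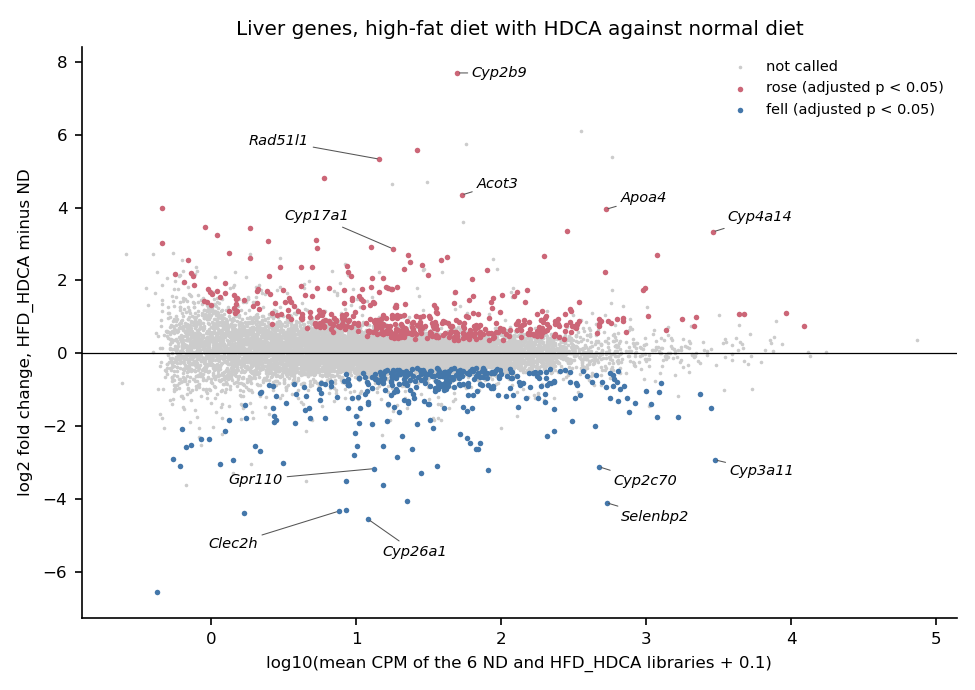
Each point is 1 of the 12587 genes tested, with its mean level in the ND and HFD_HDCA libraries on the horizontal axis (log10 of CPM + 0.1) and its log2 fold change, HFD_HDCA minus ND, on the vertical axis. The 460 genes that rose are red and the 355 that fell are blue, with Cyp2b9 highest at 7.70 and named genes from both directions marked by lines.

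Among called genes with a mean of at least 2 CPM in ND or HFD_HDCA, the largest fall was that of Cyp26a1, the cytochrome P450 that breaks down retinoic acid, whose transcription retinoic acid itself induces. It stood at 22.8, 21.5 and 24.6 CPM in ND 1 to 3, at 10.8, 6.36 and 10.9 CPM in the HFD livers and at 0.363, 1.63 and 0.902 CPM in the HFD_HDCA livers. The 3 groups did not overlap, and the HFD_HDCA libraries were lowest. The log2 fold change against ND was -4.56 ± 0.38 (SE; adjusted p = 0.000764, edgeR), and HFD_HDCA also differed from HFD, by -3.26 (adjusted p = 0.00343, edgeR). The gene lies on chromosome 19 from 37697808 to 37701536 (mm10). Its RefSeq promoter is shown because it holds an element of the kind that retinoic acid receptors bind, 2 copies of AGNTCA in the same direction with 5 bases between. The match is in capitals below, where it reads on the strand opposite to the gene. The window runs from 250 bases before to 50 after the start site, at chr19:37697558-37697857 (GRCm38.p6, plus strand).
Cyp26a1 promoter: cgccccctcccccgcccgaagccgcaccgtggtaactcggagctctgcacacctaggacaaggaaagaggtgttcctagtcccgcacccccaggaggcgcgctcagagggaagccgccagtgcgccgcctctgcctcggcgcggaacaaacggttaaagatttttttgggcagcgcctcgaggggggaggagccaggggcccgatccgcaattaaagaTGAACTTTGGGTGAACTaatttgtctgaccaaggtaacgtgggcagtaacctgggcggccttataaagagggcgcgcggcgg
The element starts 32 bases before the start site. Searched on both strands, it is held by 0.204% of the 32851 RefSeq promoter windows of this length and by 0.077% of the tested genes with a window. It was added to the search after the values were seen, and a match describes letters only.

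Other large falls were called in genes of several kinds. Clec2h, encoding a C-type lectin-like protein, stood at 17.1, 13.8 and 11.7 CPM in ND, 9.21, 3.18 and 4.58 CPM in HFD and 0.727, 0.232 and 1.14 CPM in HFD_HDCA. Its 3 groups did not overlap, and the treated livers differed from ND by -4.33 ± 0.52 (SE; adjusted p = 0.00279, edgeR) and from HFD by -3.01 (adjusted p = 0.0189). For Gpr110 (now Adgrf1), which encodes an adhesion receptor, the level dropped from 23.6 ± 1.8 to 2.61 ± 0.781 CPM (mean ± SD over n = 3 per group; log2 fold change -3.17, adjusted p = 0.000764, edgeR). It stood at 1.91 ± 0.882 CPM in HFD, where HFD_HDCA differed by 0.45 (adjusted p = 0.413). Ccrn4l (now Noct), a clock-controlled deadenylase-family gene, was at 2.79, 2.5 and 2.35 CPM in HFD_HDCA against 56.9, 36.4 and 33 CPM in ND (adjusted p = 0.038), with HFD libraries spread from 8.13 to 85 CPM. LOC622167 fell by 4.37 on the log2 scale, from means of 3.03 to 0.14 CPM, a level near that of 3 reads. The other 7 of the 12 largest falls were Cyp2c55, Cyp2c40, Cyp2c70, Cyp4a12b, Selenbp2, Gsta2 and Gstm3, which belong to the groups described below. The place of Cyp2c40 rests on the counts: on the log2(FPKM + 1) scale of the authors' FPKM tables its difference was -0.64 (adjusted p = 0.171, limma), against -3.52 in the counts. On that scale Ccrn4l was not called either, at -2.76 (adjusted p = 0.0657). Of these 12 calls, 6 held in all 9 fits that left out a library, namely Cyp26a1, LOC622167, Clec2h, Cyp2c55, Gpr110 and Cyp2c70. Those of Ccrn4l held in 3 of 9 (adjusted p = 0.129 without HFD_HDCA 3), of Selenbp2 and Cyp2c40 in 5 (up to 0.0721 and 0.072, without ND 3 and HFD_HDCA 1), of Gstm3 in 6 (0.0804 without ND 1), of Cyp4a12b in 7 (0.0699 without ND 1) and of Gsta2 in 8 (0.0534 without HFD_HDCA 3).

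Among the largest rises, Cyp2b9, a cytochrome P450 typical of female liver, went from 18, 8 and 0 reads in the ND libraries to 58.9, 92.6 and 146 CPM in HFD_HDCA. The ND level was 0.937, 0.434 and 0 CPM and the log2 fold change 7.7 ± 0.68 (SE; adjusted p = 0.00146, edgeR). In HFD it stood at 169, 281 and 153 CPM, all above the HFD_HDCA libraries, a difference of -1.02 with an adjusted p of 0.227. The gene lies on chromosome 7 from 26173409 to 26210660, beside the near-identical Cyp2b13, so reads could be split between them. Rad51l1 (now Rad51b), a recombination gene, stood at 0.781, 1.19 and 0.0578 CPM in ND, 14.6, 10.9 and 7.92 CPM in HFD and 23.9, 24.2 and 35.8 CPM in HFD_HDCA, groups that did not overlap. Its rise over ND was 5.33 ± 0.52 (SE; adjusted p = 0.00154), and the adjusted p against HFD was 0.0995. Il1rn, encoding the interleukin 1 receptor antagonist, was at 0.625, 2.11 and 0.983 CPM in ND and 11.9, 7.32 and 8.36 CPM in HFD_HDCA (adjusted p = 0.00592, edgeR), and it also exceeded HFD, at 3.74, 1.62 and 2.6 CPM, with an adjusted p of 0.0426. Levels of Cyp17a1, which hydroxylates steroids, went from 4.27 ± 0.599 to 31.3 ± 6.91 CPM (mean ± SD over n = 3 per group, adjusted p = 0.00235) beside 24.2 ± 11 CPM in HFD. Cgref1, a calcium-binding growth regulator gene, rose from 0.416, 0.271 and 0.174 to 1.33, 4.94 and 3.43 CPM (adjusted p = 0.00669). Ly6d, a cell surface protein gene, stood at 25.7 CPM in HFD_HDCA 1 and 3.84 and 4.81 CPM in the other treated livers against at most 0.596 CPM in ND (adjusted p = 0.0233). Rgs16, a regulator of G protein signalling, was called only narrowly (adjusted p = 0.04999), with HFD_HDCA at 5.39, 17.7 and 43.1 CPM and HFD at 35.6, 18.5 and 27.9 CPM against 3.28, 3.58 and 1.91 CPM in ND. Acot3, Apoa4, G0s2, Cyp4a14 and Cyp2a4 complete the 12 and are taken up below. The place of Cyp2a4 also rests on the counts, since on the log2(FPKM + 1) scale its difference was -1.53 (adjusted p = 0.129, limma), in the opposite direction. Rgs16 was not called on that scale, at 1.76 (adjusted p = 0.117). Calls held in all 9 fits without a library for Cyp2b9, Rad51l1, Acot3, Cgref1, Il1rn and Cyp17a1. They held in 6 for Ly6d, 5 for Apoa4, G0s2 and Cyp2a4, 2 for Cyp4a14 and 1 for Rgs16, of 9. Without ND 1 the adjusted p was 0.107 for Ly6d, 0.0961 for Apoa4, 0.101 for G0s2, 0.15 for Cyp4a14 and 0.156 for Rgs16, and without ND 2 it was 0.0901 for Cyp2a4.

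Genes of fatty acid oxidation were higher in the treated livers than in lean ones. In the list of omega-hydroxylation and peroxisomal oxidation, 18 of 33 tested genes rose (54.5%, beside 3.65% of all genes) and 3 fell, with a median log2 fold change of 0.81. In HFD alone 2 rose and 1 fell, with a median of 0.20. Cyp4a14, an omega-hydroxylase that starts fatty acid breakdown from the methyl end, stood at 427, 1035 and 111 CPM in ND, 788, 1357 and 821 CPM in HFD and 2952, 6283 and 6641 CPM in HFD_HDCA. All treated libraries exceeded all others, by 3.34 ± 0.75 (SE) on the log2 scale over ND (adjusted p = 0.0395, edgeR). Cyp4a10, its close relative, was at 367, 452 and 137 CPM in ND and 1340.1, 2249 and 2646 CPM in HFD_HDCA (adjusted p = 0.0232), and HFD_HDCA exceeded HFD by 2.39 (adjusted p = 0.0469). Reads of the near-identical Cyp4a genes could be split between them. Acot3, a peroxisomal acyl-CoA thioesterase, rose from 3.38, 9.21 and 2.37 to 63.2, 111 and 131 CPM (log2 fold change 4.35 ± 0.50, SE; adjusted p = 0.00361). Its near-identical neighbour Acot4 rose by 2.05, and Acot8, another peroxisomal thioesterase, by 0.89 (adjusted p = 0.00592 and 0.00272). Ech1, an isomerase of unsaturated acyl-CoAs, rose by 0.95 (adjusted p = 0.00574). The 3 that fell were Cyp4a12a, Cyp4a12b and Cyp4f14, of which Cyp4f14, a leukotriene and fatty acid hydroxylase, dropped from 275 ± 14 to 155 ± 8.23 CPM (mean ± SD over n = 3 per group, adjusted p = 0.00494).

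Mitochondrial oxidation and ketogenesis followed the same direction, with 14 of 29 genes up (48.3%), 0 down and a median of 0.73. In HFD 0 of them was called by edgeR, 7 were higher and 0 lower at an unadjusted p under 0.05, and the median was 0.19. Cpt1a, which admits long-chain fatty acids to mitochondria, was at 371, 462 and 322 CPM in ND, 492, 606 and 498 CPM in HFD and 658, 799 and 679 CPM in HFD_HDCA. The groups were stepped with no overlap, and the rise over ND was 0.89 ± 0.16 (SE; adjusted p = 0.0121, edgeR). The carnitine carrier Slc25a20 rose by 0.91, and the beta-oxidation enzymes Hadh, Hadhb and Acadl rose by 0.82, 0.93 and 0.71 (adjusted p from 0.00698 to 0.0119). Against HFD, the adjusted p was 0.028 for Slc25a20, 0.0395 for Hadhb and 0.162 for Cpt1a. The respiratory chain did not show called changes, with 0 of 30 subunits up and 0 down by edgeR and 1 and 1 by DESeq2. At an unadjusted p under 0.05, 3 subunits were higher and 1 lower, beside 26.1% of all genes in either direction. Without HFD_HDCA 2, 6 subunits rose.

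Other genes linked to PPARα varied. Ppara itself was at 322, 341 and 298 CPM in ND and 315, 608 and 568 CPM in HFD_HDCA, where HFD_HDCA 1 lay inside the ND range (adjusted p = 0.0981). Of 22 tested regulators, transporters and hormone targets 7 rose and 1 fell. Retsat, a retinol saturase induced by PPARα, rose from 372, 502 and 449 to 1029, 1931 and 1592 CPM (log2 fold change 1.78 ± 0.25, SE; adjusted p = 0.00421), whereas HFD stood at 362, 570.5 and 401 CPM, 1.77 below HFD_HDCA on the log2 scale (adjusted p = 0.00751). Vnn1, encoding the pantetheinase vanin 1, was at 52.9, 77.9 and 31.9 CPM in ND and 168, 398 and 462 CPM in HFD_HDCA (adjusted p = 0.0103). The fatty acid transporters Slc27a1 and Slc27a2 rose by 1.81 and 0.75, each also above HFD (adjusted p = 0.00872 and 0.0198). Fgf21, a fasting hormone of the liver, was at 0.156, 2.98 and 0.868 CPM in ND, 2.22, 11.1 and 8.13 CPM in HFD and 3.33, 36.8 and 60.5 CPM in HFD_HDCA, with an adjusted p of 0.0614 that missed the threshold. Ctgf, a matrix-associated growth factor gene, was the member that fell, from 24.6, 14 and 11.3 to 2.73, 2.27 and 2.17 CPM (adjusted p = 0.00279). Outside the naming rule, and chosen after its values were seen, Gm15441 had the second largest rise of all called genes. This antisense transcript of Txnip stood at 0.572, 2.28 and 0.347 CPM in ND, 0.65, 0.606 and 0.417 CPM in HFD and 6.42, 78.8 and 68.8 CPM in HFD_HDCA (log2 fold change 5.57 ± 1.01, SE; adjusted p = 0.0196, edgeR, 0.0976 without ND 1 and 0.0566 on the log2(FPKM + 1) scale). How strand was used in the counting is not stated, so reads of Txnip and its antisense partner may not be separated.

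HFD_HDCA 1 had the lowest treated level of Cyp4a14, Cyp4a10, Acot3, Acot4, Vnn1, Fgf21 and Gm15441, and the part of its acute phase pattern in these values was not tested. Without it, 18 of 33 omega and peroxisomal, 17 of 29 mitochondrial and 11 of 22 other PPARα-linked genes rose, in each case as many as with it or more. Cyp4a14 then had an adjusted p of 0.0513. Without ND 1 the counts were 7, 2 and 2. Calls that failed in at least 1 such fit included Gm15441, Cyp4a14, Cyp4a10, Cyp4a12b, Cpt1a, Hadhb, Acadl, Vnn1 and Slc27a2, each with its highest adjusted p without ND 1. That p was 0.0905 for Cyp4a10, 0.0904 for Slc27a2, 0.0748 for Acadl, 0.0713 for Cpt1a, 0.0582 for Vnn1 and 0.053 for Hadhb.

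**Figure D2:**
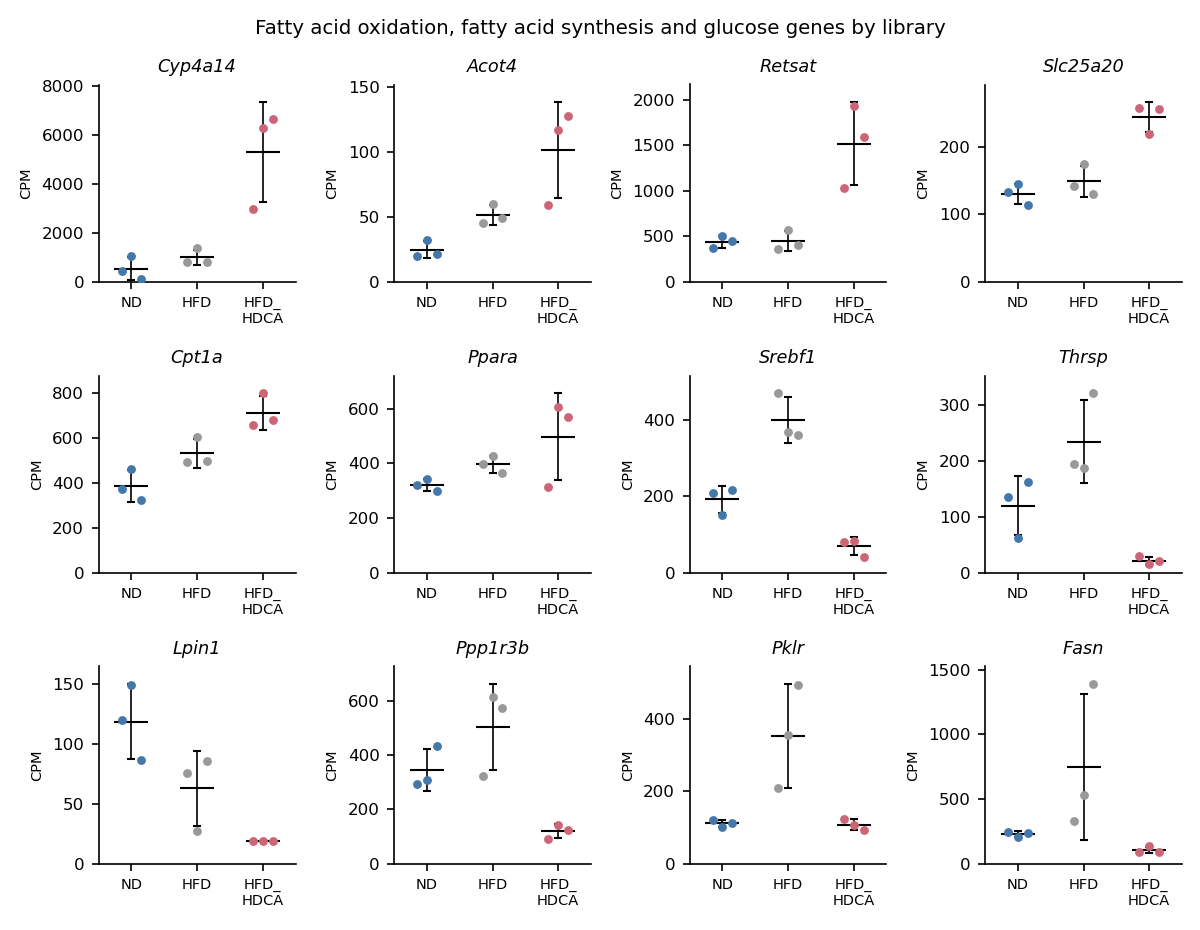
Points are single libraries, horizontal bars the mean of 3 and vertical bars the SD, with CPM on a linear axis from 0 for ND, HFD and HFD_HDCA. Cyp4a14, Acot4, Retsat, Slc25a20 and Cpt1a were above ND in all 3 treated livers, and Srebf1, Thrsp, Lpin1 and Ppp1r3b were below ND in all 3, while Pklr overlapped ND and Fasn lay below it without passing the test.

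A few genes of fatty acid synthesis fell in treated livers, namely Srebf1, Thrsp and Lpin1. HFD levels of Srebf1 and Thrsp were above ND, but neither was called between HFD and ND. In FPKM, Thrsp stood at 111.5, 51.6 and 129.7 in ND and at 174.4, 160.8 and 288.4 in HFD. Of 25 fatty acid synthesis genes 0 rose and 3 fell (12%, beside 2.82% of all genes, median -0.55), beside 1 that rose, Mid1ip1, and a median of 0.64 in HFD. Positive log2 fold changes against ND were found in 6 of the 25 in HFD_HDCA. There, 3 were higher and 10 lower at an unadjusted p under 0.05 (edgeR), beside 10 higher and 1 lower in HFD. Srebf1, the gene of SREBP1, stood at 209, 153 and 216 CPM in ND, 471, 369.6 and 361 CPM in HFD and 80.8, 84 and 41.8 CPM in HFD_HDCA. The groups were fully separate, with HFD highest and HFD_HDCA lowest, and the difference of HFD_HDCA was -1.48 ± 0.26 (SE; adjusted p = 0.0112, edgeR) from ND and -2.54 (adjusted p = 0.00283) from HFD. Thrsp, a lipogenic regulator, was at 136, 61.7 and 163 CPM in ND and 29.3, 15.4 and 20.3 CPM in HFD_HDCA (log2 fold change -2.47 ± 0.40, SE; adjusted p = 0.0119). Lpin1, a phosphatidate phosphatase, was at 119.7, 149 and 86.5 CPM in ND, 75.7, 27.2 and 85.4 CPM in HFD and 19.1, 18.9 and 19 CPM in HFD_HDCA (adjusted p = 0.00898). The enzymes Fasn and Scd1 did not pass the test. Fasn, fatty acid synthase, was at 247, 205 and 241 CPM in ND and 92.4, 133 and 86.8 CPM in HFD_HDCA (adjusted p = 0.16), and Scd1, the stearoyl-CoA desaturase, at 4630.0, 5286 and 3913 and 1647, 682 and 4517 CPM (adjusted p = 0.383). HFD libraries for Fasn reached 1386 CPM, and HFD_HDCA differed from HFD with an adjusted p of 0.022. The count of synthesis genes that fell was 1 without ND 1 and 7 without HFD 3.

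Of 26 genes of glycolysis, fructose use and glycogen 1 rose and 4 fell, against 4 and 0 in HFD. The treated shares were 3.85% and 15.4%, beside 3.65% and 2.82% of all genes, and 0.477% of all genes moved each way in HFD. Ppp1r3b, which targets protein phosphatase to glycogen, fell from 345 ± 77.3 to 119.5 ± 26.6 CPM, and Gbe1, the glycogen branching enzyme, from 101 ± 5.12 to 69.1 ± 5.0 CPM (mean ± SD over n = 3 per group; adjusted p = 0.0119 and 0.0376, edgeR). Pfkfb3, a regulator of glycolytic flux, fell from 44.6, 31.1 and 24.3 to 3.76, 4.59 and 5.54 CPM (adjusted p = 0.00963). Ldha, lactate dehydrogenase A, rose from 637, 746 and 672 to 1298, 1534 and 1338 CPM (adjusted p = 0.00519). Pklr, the liver pyruvate kinase, overlapped ND, at 123, 106 and 94.6 CPM against 121, 101 and 113 CPM in ND and 209, 355 and 496 CPM in HFD (HFD against ND, adjusted p = 0.0231; HFD_HDCA against ND, log2 fold change -0.05 ± 0.26, SE, adjusted p = 0.927). In the list of gluconeogenesis and insulin signalling 1 of 22, Sesn2, rose (4.55%) and 3, Foxo1, Pik3r1 and Tat, fell (13.6%). Foxo1, a transcription factor of gluconeogenic genes, fell from 53.2 ± 2.49 to 31.8 ± 2.84 CPM beside 34.4 ± 2.28 CPM in HFD (adjusted p = 0.00421 against ND and 0.56 against HFD). Pik3r1, a regulatory subunit of PI3 kinase, fell by 0.62 on the log2 scale (adjusted p = 0.0208). Pck1 and G6pc, the gluconeogenic enzymes, were not called, with log2 fold changes of -0.32 ± 0.38 and -0.06 ± 0.22 (SE). Calls for Lpin1, Pfkfb3, Ppp1r3b, Ldha and Foxo1 held in all 9 fits without a library. Those of Srebf1, Thrsp, Pik3r1 and Gbe1 held in 8, 7, 5 and 3, with adjusted p up to 0.0526, 0.0515, 0.088 and 0.148, without HFD_HDCA 3 for Thrsp and without ND 1 for the others. Without HFD 1, 8 of the glycolysis and glycogen genes fell, and without ND 1, 1 of the gluconeogenesis genes.

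Part of the lipid handling genes rose. In the list of lipid droplets, uptake and triglyceride synthesis 8 of 36 tested genes rose and 1, Lpin1, fell (median 0.30), beside 1 that rose in HFD, Fabp2, where the median was 0.32. At an unadjusted p under 0.05, 14 were higher and 2 lower in HFD_HDCA, and 14 higher and 4 lower in HFD. Apoa4, an apolipoprotein of lipid-loaded liver and gut, stood at 66.8, 56 and 69.2 CPM in ND, 229, 864 and 1693 CPM in HFD and 1705, 574 and 697 CPM in HFD_HDCA. The treated livers exceeded all ND livers and overlapped HFD, with a log2 fold change of 3.95 ± 0.74 (SE; adjusted p = 0.0214, edgeR) over ND and 0.09 over HFD. Fabp2, a fatty acid binding protein, also overlapped HFD, with 60.4, 75.8 and 69.8 CPM in ND, 179, 262 and 218 CPM in HFD and 201, 174 and 317 CPM in HFD_HDCA (adjusted p = 0.00326 against ND). G0s2, an inhibitor of triglyceride lipase, rose from 31.5, 63.5 and 57.3 to 218, 498 and 839 CPM (adjusted p = 0.0239). Mgll, the monoglyceride lipase, rose by 1.16 and Fitm2, a droplet-forming protein, by 0.85 (adjusted p = 0.021 and 0.0149). Cidec, a droplet fusion protein, was at 3.12, 2.38 and 2.14 CPM in ND and 3.27, 17.8 and 20.6 CPM in HFD_HDCA (adjusted p = 0.125), and the fatty acid translocase Cd36 at 84.5, 81.7 and 56.2 and 99.3, 78.5 and 239 CPM (adjusted p = 0.176). Cidea was too low to be tested. Without ND 1 the count that rose was 1. The calls of Apoa4, G0s2 and Mgll each held in 5 of the 9 fits with 1 library removed and that of Fitm2 in 6, with adjusted p of 0.101 for G0s2, 0.0891 for Mgll and 0.0761 for Fitm2 without ND 1.

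Cholesterol synthesis showed 0 called rises and 0 called falls among 25 genes by edgeR and by DESeq2, with 1 higher and 0 lower at an unadjusted p under 0.05. Among 18 LXR and sterol export genes, Nceh1, a neutral cholesterol ester hydrolase, rose from 32.2, 35.1 and 29 to 69.4, 91.1 and 104 CPM (log2 fold change 1.46 ± 0.15, SE; adjusted p = 0.00142, edgeR), with HFD at 31.8, 38.8 and 36.4 CPM. Abca1, the cholesterol efflux pump, fell from 219.9, 210.5 and 217 to 137, 144 and 139 CPM (adjusted p = 0.00542), with HFD at 206, 204 and 208 CPM. HFD_HDCA differed from HFD for both (adjusted p = 0.00343 and 0.014).

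Bile acid genes moved in both directions. Of 16 synthesis genes 3 rose (18.8%, beside 3.65% of all genes) and 2 fell (12.5%, beside 2.82%). Cyp2c70, the enzyme that makes muricholic acids in mice, stood at 723, 594 and 1243 CPM in ND, 269, 294 and 279.6 CPM in HFD and 131, 48.5 and 115 CPM in HFD_HDCA. No libraries overlapped between diets, and the log2 fold change against ND was -3.12 ± 0.40 (SE; adjusted p = 0.00421, edgeR), with an adjusted p of 0.0616 against HFD. Cyp39a1, an oxysterol hydroxylase, was at 19.8, 19.6 and 19.4 CPM in ND, 33.6, 28.7 and 32.5 CPM in HFD and 45, 54 and 47.5 CPM in HFD_HDCA (log2 fold change 1.32 ± 0.11, SE; adjusted p = 0.000764), and it was called in all 3 comparisons. Cyp27a1, the sterol hydroxylase that begins the alternative pathway, fell from 626 ± 43.3 to 366 ± 42.4 CPM (mean ± SD over n = 3 per group, adjusted p = 0.00919). Cyp7a1, the rate-limiting enzyme of the classical pathway, was at 41.8, 52.5 and 73.7 CPM in ND and 48, 2.96 and 12.3 CPM in HFD_HDCA and was not called (adjusted p = 0.332), with HFD_HDCA 1 inside the ND range. Cyp8b1, which makes cholic acid, was at 259, 364 and 325 and 867, 845 and 770.0 CPM in the same groups, above ND in all treated livers with an adjusted p of 0.063. Cyp7b1 was at 73.2, 126 and 90.8 CPM in HFD, below all other libraries (adjusted p = 0.0162 against ND and 0.029 between HFD_HDCA and HFD), and at 429, 254 and 230.5 CPM in HFD_HDCA against 404, 397 and 707 CPM in ND (adjusted p = 0.182).

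Of 17 transporters of bile acids and organic anions 0 rose and 3 fell (17.6%, beside 2.82% of all genes, median -0.46). In HFD 0 were called by edgeR, with 3 higher and 4 lower at an unadjusted p under 0.05. Abcb11, the bile salt export pump, stood at 921, 854 and 949 CPM in ND, 707, 733 and 692 CPM in HFD and 292, 382 and 415 CPM in HFD_HDCA. The steps did not overlap, and treated livers lay -1.32 ± 0.14 (SE; adjusted p = 0.00146, edgeR) from ND and -0.97 (adjusted p = 0.00825) from HFD. Atp8b1, a phospholipid flippase of the canalicular membrane, fell from 53.6, 52.3 and 55.1 to 30.3, 29.8 and 25.3 CPM (adjusted p = 0.00154), with HFD at 52.4, 50.2 and 53.8 CPM. Slc22a7, an organic anion transporter, fell by 1.6 on the log2 scale (adjusted p = 0.0149). Nr1h4, the gene of FXR, rose from 103 ± 14.8 to 169 ± 12.6 CPM, while Fgfr4, the receptor for the intestinal hormone FGF15, fell from 47.3 ± 2.14 to 32.9 ± 2.35 CPM (mean ± SD over n = 3 per group; adjusted p = 0.0202 and 0.0379). Nr0b2, the FXR-induced repressor SHP, was at 34, 45.2 and 61.2 CPM in ND and 16.1, 45.3 and 34.6 CPM in HFD_HDCA (adjusted p = 0.344). Calls of Cyp2c70, Cyp39a1, Cyp27a1, Nceh1, Abca1, Abcb11 and Atp8b1 held in all 9 fits without a library, and those of Slc22a7, Nr1h4 and Fgfr4 in 7, 6 and 3, with adjusted p up to 0.0606, 0.103 and 0.129, without HFD_HDCA 3, ND 1 and ND 2 in turn.

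Transcripts of many foreign-compound enzymes, from several families, were lower than in lean livers. Of 25 tested CAR and PXR genes 10 fell (40%, beside 2.82% of all genes) and 3 rose, with a median of -0.80, and 4 fell and 2 rose in HFD (median -0.48). Cyp3a11, the main PXR-induced cytochrome P450 of mouse liver, stood at 6390.2, 4962 and 4565 CPM in ND, 744, 932 and 1176 CPM in HFD and 1179, 462 and 451 CPM in HFD_HDCA. The treated livers were below all ND livers and overlapped HFD, with a log2 fold change of -2.93 ± 0.39 (SE; adjusted p = 0.00429, edgeR) from ND and an adjusted p of 0.501 against HFD. Ces2a, a carboxylesterase, was likewise at 480.1 ± 15.5 CPM in ND, 133 ± 18.5 CPM in HFD and 132 ± 33.5 CPM in HFD_HDCA (mean ± SD over n = 3 per group; log2 fold change -1.86, adjusted p = 0.000978), and the difference between HFD_HDCA and HFD was -0.01 ± 0.18 (SE). Cyp2c29 and Cyp2c55, of the Cyp2c family of drug and fatty acid oxidases, fell by 1.74 and 4.3 on the log2 scale (adjusted p = 0.00124 and 0.00551). For Cyp2c29 the levels were 1811, 1892 and 1749 CPM in ND, 910.3, 1252 and 853 CPM in HFD and 545, 448 and 639 CPM in HFD_HDCA, with an adjusted p of 0.028 against HFD. Cyp2b10, the usual CAR target, was at or under 0.523 CPM in HFD_HDCA and at 7.34, 0.867 and 1.27 CPM in ND (adjusted p = 0.0961).

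Among 21 other cytochromes P450 6 fell (28.6%) and 2, Cyp17a1 and Cyp2a4, rose (9.52%). The direction of Cyp2a4 is uncertain, as it was -1.53 on the log2(FPKM + 1) scale. With a replicate block 1 rose. Cyp1a2, a pericentral enzyme that oxidizes aromatic amines, stood at 722, 714 and 703 CPM in ND, 383, 304 and 262 CPM in HFD and 197, 203 and 139 CPM in HFD_HDCA. The log2 fold change from ND was -1.99 ± 0.18 (SE; adjusted p = 0.000764, edgeR), and the treated livers were also below HFD (adjusted p = 0.0356). Cyp2f2, a periportal enzyme, fell from 1666 ± 299 to 800.2 ± 212 CPM (mean ± SD over n = 3 per group, adjusted p = 0.0159). Of 31 glutathione and NRF2 genes 8 fell (25.8%) and 0 rose. In HFD 0 were called by edgeR, with 11 lower and 2 higher at an unadjusted p under 0.05. Gstm1, an abundant glutathione S-transferase, went from 1782, 1670.2 and 1226 CPM in ND to 663, 643 and 494 CPM in HFD_HDCA (log2 fold change -1.38 ± 0.18, SE; adjusted p = 0.0033). Falls of 1.15, 1.49, 3.28 and 3.09 on the log2 scale were called for Gstm6, Gsta4, Gsta2 and Gstm3 of the same superfamily. Some of these have near-identical copies, between which reads may be split. Ugdh, which makes the donor for glucuronidation, fell by 0.90 (adjusted p = 0.0107). Of 23 conjugating enzymes 4 fell (17.4%) and 0 rose. Ugt2b1, a glucuronosyltransferase, was at 1059, 947 and 1441 CPM in ND, 352, 511 and 459 CPM in HFD and 371, 367 and 383 CPM in HFD_HDCA (adjusted p = 0.0017), and Ugt1a9 fell by 1.82 on the log2 scale. In these families the calls of Cyp3a11, Ces2a, Cyp2c29, Cyp2c55, Cyp1a2, Gstm6, Gstm1, Gsta4, Ugt2b1 and Ugt1a9 held in all 9 fits without a library. That of Cyp2f2 held in 7 and that of Ugdh in 8 (adjusted p = 0.0803 and 0.0548 without ND 1). Without ND 1 the counts that fell were 6 of 25, 2 of 21 4 of 31 and 2 of 23, for CAR and PXR genes, other cytochromes P450, glutathione genes and conjugating enzymes, and 1 CAR and PXR gene rose.

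**Figure D3:**
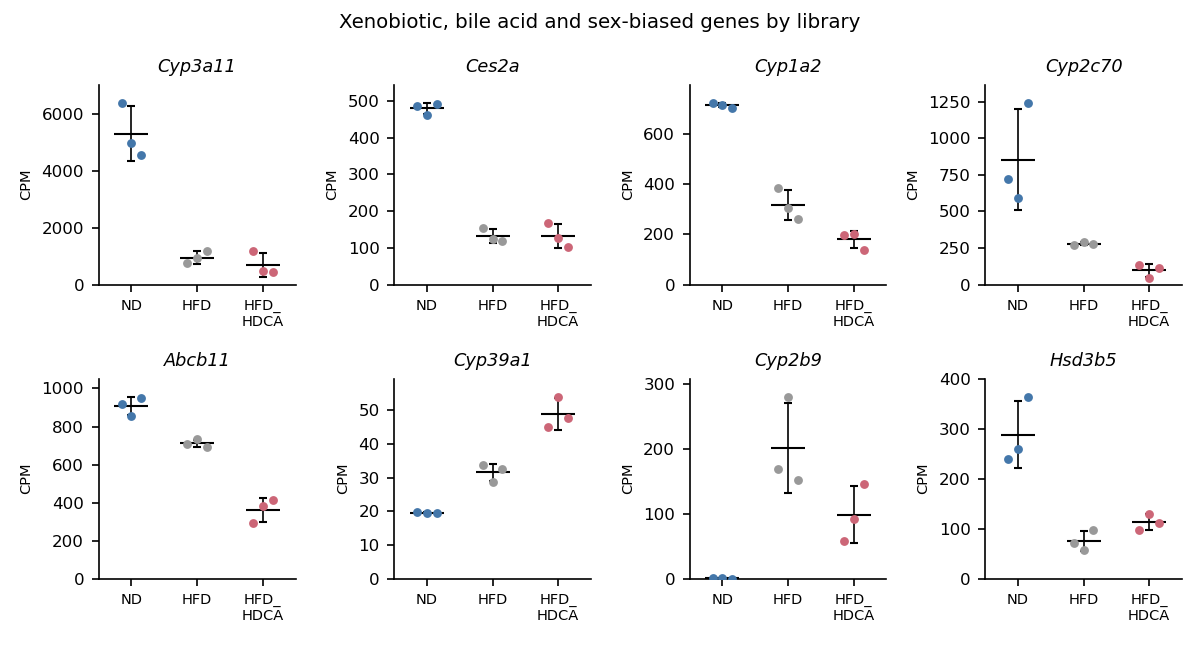
Points are single libraries, horizontal bars the mean of 3 and vertical bars the SD, with CPM on a linear axis from 0 for ND, HFD and HFD_HDCA. Cyp3a11, Ces2a and Cyp2b9 in treated livers were far from ND and nearer to HFD, Cyp1a2, Cyp2c70, Abcb11 and Cyp39a1 were farther from ND than HFD was, and Hsd3b5 lay below ND in both.

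Genes that differ between male and female liver, a pattern set by growth hormone secretion, shifted in the treated livers. Of 29 male-biased genes 9 fell (31%) and 2 rose (6.9%), with a median of -0.72, beside 9 and 0 in HFD (median -1.19). Of all genes 2.82% fell and 3.65% rose, and 0.477% moved each way in HFD. Of 25 tested female-biased genes 10 rose and 3 fell (median 1.52), beside 7 and 1 in HFD (median 1.25). Among the 3 that fell was Cyp2c40, named above with the largest falls, which was not called on the log2(FPKM + 1) scale. Of the 10 female-biased genes that rose, Cyp4a10, Cyp4a14, Acot3, Acot4 and Hao2 also stand in the oxidation list. Cyp2a4, whose direction is uncertain, is counted among the 10 as well. Hsd3b5, a male-typical steroid dehydrogenase, was at 240.1, 259 and 364 CPM in ND, 71.6, 58.3 and 98 CPM in HFD and 97.2, 130.3 and 112 CPM in HFD_HDCA. Both high-fat groups were below all ND livers, and HFD_HDCA lay -1.35 ± 0.22 (SE; adjusted p = 0.00809, edgeR) from ND and 0.57 from HFD (adjusted p = 0.159). Selenbp2, a male-biased selenium-binding protein gene, stood at 731, 607 and 1685 CPM in ND, 14.1, 49.1 and 38.7 CPM in HFD and 114, 43.6 and 18.2 CPM in HFD_HDCA, and Cyp4a12b, a male-typical fatty acid hydroxylase, at 186, 107 and 143, 3.47, 11.8 and 14.1 and 24.4, 16.3 and 6.98 CPM in the same order. The adjusted p against ND was 0.0251 and 0.0189. Mup3 and Mup21, major urinary protein genes, went the other way. Mup3 rose from 9093, 9004 and 9248 to 17386, 13748 and 15051 CPM and Mup21 from 407, 470.3 and 525 to 1075, 849 and 829.7 CPM (adjusted p = 0.0146 and 0.00811), both above HFD (adjusted p = 0.0118 and 0.0038), though reads of this near-identical family may be split. Rtn4, a female-biased reticulon gene, rose from 45.4 ± 6.28 to 130.4 ± 22.4 CPM beside 108 ± 5.09 CPM in HFD (mean ± SD over n = 3 per group; adjusted p = 0.000978 against ND and 0.303 against HFD). Cyp2a4, which shares sequence with Cyp2a5, had a log2 fold change of 3.09 in the counts and -1.53 on the log2(FPKM + 1) scale of the authors' FPKM tables, so its direction is uncertain. Slco1a1, a male-biased transporter gene, overlapped ND (482, 724 and 731 CPM against 520.2, 731 and 602 CPM, adjusted p = 0.883). Of 22 genes of the growth hormone and IGF1 axis 0 rose and 1 fell, Igfbp3, an IGF carrier gene, with a log2 fold change of -0.98 ± 0.20 (SE; adjusted p = 0.0208). Igf1 was at 605 ± 56.1 CPM in ND and 499 ± 81.4 CPM in HFD_HDCA (mean ± SD over n = 3 per group, adjusted p = 0.352). Without ND 1 the count of male-biased genes that fell was 4, that of those that rose 0 and that of female-biased genes that rose 5. The calls of Hsd3b5 and Rtn4 held in all 9 fits without a library, those of Mup21 and Mup3 in 8 and 6 (adjusted p = 0.0513 and 0.0804 without ND 1), and that of Igfbp3 in 5 (0.0898 without ND 1).

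**Figure D4:**
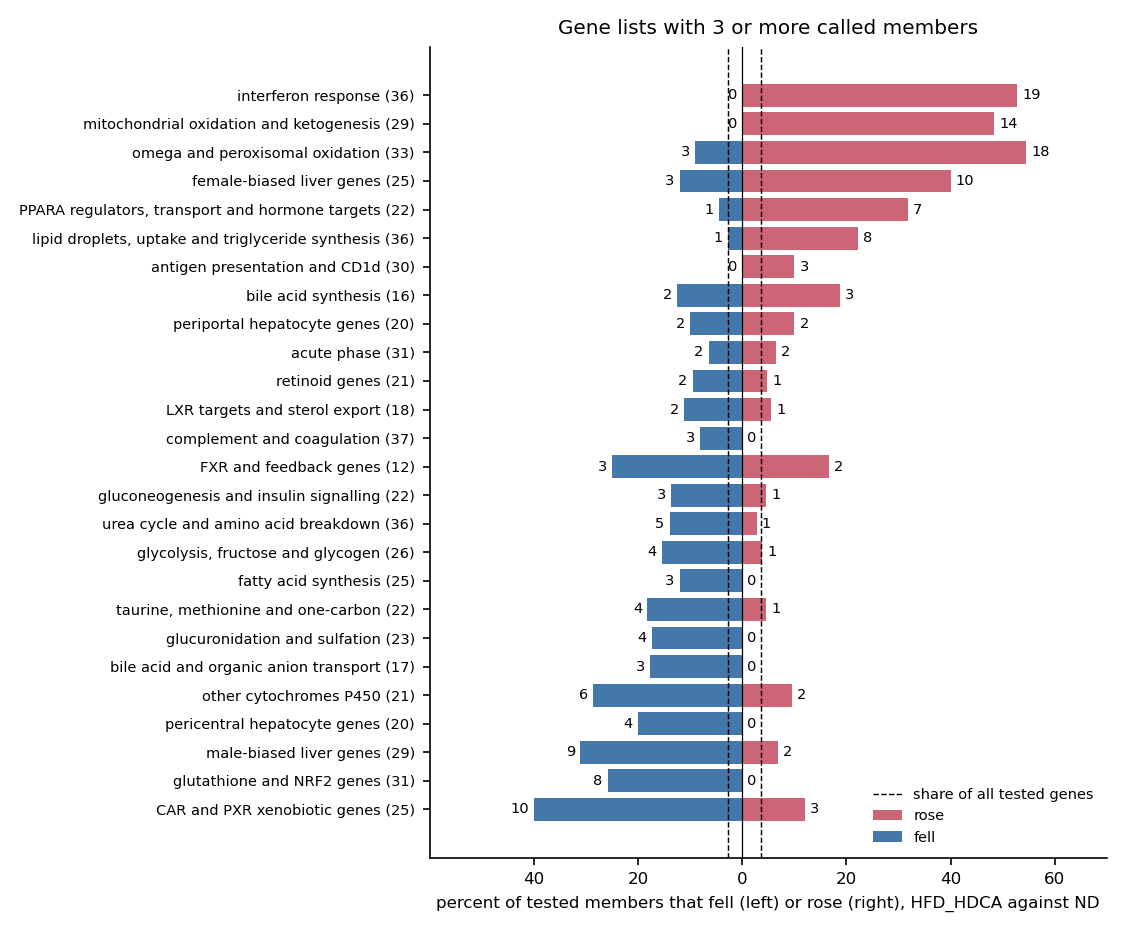
Bars give the percent of a list's tested members that rose (red, right) or fell (blue, left) in HFD_HDCA against ND at an adjusted p under 0.05, with the counts at their ends and the number tested in brackets. Dashed lines mark 3.65% and 2.82%, the shares of all tested genes that rose and fell, and the lists shown are those with 3 or more called members.

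Some genes of nitrogen and methyl metabolism fell. Of 36 genes of the urea cycle and amino acid breakdown 5 fell (13.9%, beside 2.82% of all genes) and 1, Bcat2, rose (2.78%, beside 3.65%). In HFD 0 were called by edgeR, with 4 lower and 1 higher at an unadjusted p under 0.05. Cps1, the first enzyme of the urea cycle, was at 3383, 2815 and 3513 CPM in ND, 2099, 2699.8 and 2078 CPM in HFD and 1791, 1427 and 1283 CPM in HFD_HDCA, a log2 fold change of -1.11 ± 0.17 (SE; adjusted p = 0.00619, edgeR) from ND with no overlap between diets. Tat, tyrosine aminotransferase, was at 2560.5, 2379 and 2679.8 CPM in ND and 793, 746 and 739 CPM in HFD_HDCA (adjusted p = 0.0146). The proline enzymes Prodh and Aldh4a1 fell by 0.87 and 0.59 on the log2 scale. Mat1a, which makes S-adenosylmethionine, rose from 3017, 2932 and 2483 to 6595, 5307 and 5780.0 CPM (log2 fold change 1.07 ± 0.16, SE; adjusted p = 0.00477), above HFD as well (adjusted p = 0.0441). In the same list of 22 taurine, methionine and one-carbon genes 4 fell (18.2%). Among them were Aldh1l1, a folate enzyme, and Cbs, the first enzyme of transsulfuration, with log2 fold changes of -1.04 and -0.59. Of 21 retinoid genes Retsat rose (4.76%), while Cyp26a1 and Aldh1a7, a retinal dehydrogenase relative, fell (9.52%). For Aldh1a7 the log2 fold change was -0.86 ± 0.21 (SE; adjusted p = 0.0357, edgeR). Of 20 pericentral hepatocyte genes 4 fell and 0 rose, among them Cyp1a2, Cyp27a1 and Gstm3 from the lists above and Rhbg, an ammonium transporter, which went from 11.7, 8.13 and 7.75 to 4.18, 2.15 and 1.68 CPM (adjusted p = 0.0248). Of 20 periportal genes 2, Apoa4 and Hsd17b13, rose (10%, beside 3.65% of all genes) and 2, Cps1 and Cyp2f2, fell (10%, beside 2.82%). The median log2 fold change was -0.41 for pericentral and -0.55 for periportal genes, with 6 and 5 positive. Unadjusted p values under 0.05 (edgeR) marked 0 pericentral genes as higher and 11 as lower, and 4 periportal genes as higher and 8 as lower. Hsd17b13, a lipid droplet enzyme, rose from 366, 344 and 357 to 611, 606 and 574 CPM (adjusted p = 0.00409). Calls of Cps1, Mat1a and Hsd17b13 held in all 9 fits without a library, and those of Tat, Rhbg, Aldh1a7 and Cbs in 6, 4, 4 and 3, with adjusted p up to 0.0608 without HFD_HDCA 3, 0.103 and 0.141 without ND 1 and 0.143 without ND 2. Prodh, Aldh4a1 and Aldh1l1 had adjusted p of 0.0811, 0.115 and 0.0509 without ND 1. Without ND 1, 1 urea cycle and amino acid gene, 0 one-carbon genes and 2 pericentral genes fell, and without HFD_HDCA 1, 5 periportal genes fell.

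Interferon-stimulated genes, which the antiviral cytokines of that name induce, were higher in treated than in lean livers. Of 36 genes 19 rose (52.8%, beside 3.65% of all genes) and 0 fell, all 36 had positive log2 fold changes, and the median was 0.80. In HFD 0 were called by edgeR, 12 were higher and 1 lower at an unadjusted p under 0.05, and the median was 0.39. Ifit1, an RNA-binding antiviral effector, stood at 6.04, 4.17 and 4.28 CPM in ND, 8.77, 13 and 6.82 CPM in HFD and 18.1, 23.9 and 19.3 CPM in HFD_HDCA. The diets did not overlap, and the treated livers exceeded ND by 2.08 ± 0.25 (SE; adjusted p = 0.00194, edgeR) and HFD by 1.1 (adjusted p = 0.0349). Ifit3, its partner, was at 6.71, 5.96 and 6.48 CPM in ND and 14.4, 16.7 and 15.3 CPM in HFD_HDCA (log2 fold change 1.28 ± 0.18, SE; adjusted p = 0.00421), with HFD at 9.1, 11.1 and 6.67 CPM. Isg15, a ubiquitin-like modifier, was at 7.03, 6.5 and 4.69 CPM in ND, 7.31, 8.79 and 7.4 CPM in HFD and 13.9, 12.4 and 13.5 CPM in HFD_HDCA (log2 fold change 1.13 ± 0.17, SE; adjusted p = 0.00558). Mx1, an antiviral GTPase, was at 0.885, 1.03 and 0.81 CPM in ND and 3.03, 3.08 and 3.19 CPM in HFD_HDCA (adjusted p = 0.00421). Irf9, part of the interferon-activated transcription factor, rose from 30.8 ± 2.55 to 54.8 ± 3.1 CPM (mean ± SD over n = 3 per group, adjusted p = 0.0037). Against HFD, the adjusted p was 0.0413 for Ifit3, 0.0379 for Isg15, 0.0351 for Mx1 and 0.0578 for Irf9. These 5 calls held in all 9 fits without a library. Without HFD_HDCA 1, 14 of the list rose, and without ND 1, 8.

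The promoters of Ifit1, Ifit3 and Isg15 are shown because they hold the kind of element through which interferon acts, 2 copies of GAAA in the same direction with any 2 bases between, in capitals below on either strand. The RefSeq windows (GRCm38.p6) are chr19:34640639-34640938 for Ifit1 (plus strand), chr19:34583279-34583578 for Ifit3 (plus strand) and chr4:156200769-156201068 for Isg15 (minus strand).
Ifit1 promoter: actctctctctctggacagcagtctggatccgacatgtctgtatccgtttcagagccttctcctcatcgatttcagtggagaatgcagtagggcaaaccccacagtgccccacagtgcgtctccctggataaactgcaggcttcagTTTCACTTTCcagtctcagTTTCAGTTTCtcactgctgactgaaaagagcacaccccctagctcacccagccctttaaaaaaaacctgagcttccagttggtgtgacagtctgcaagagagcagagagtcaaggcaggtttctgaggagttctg
Ifit3 promoter: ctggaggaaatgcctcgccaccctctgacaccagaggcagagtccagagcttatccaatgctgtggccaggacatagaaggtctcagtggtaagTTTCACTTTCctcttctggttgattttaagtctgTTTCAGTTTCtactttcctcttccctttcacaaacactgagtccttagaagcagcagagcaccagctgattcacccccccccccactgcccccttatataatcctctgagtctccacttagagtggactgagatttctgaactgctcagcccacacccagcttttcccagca
Isg15 promoter: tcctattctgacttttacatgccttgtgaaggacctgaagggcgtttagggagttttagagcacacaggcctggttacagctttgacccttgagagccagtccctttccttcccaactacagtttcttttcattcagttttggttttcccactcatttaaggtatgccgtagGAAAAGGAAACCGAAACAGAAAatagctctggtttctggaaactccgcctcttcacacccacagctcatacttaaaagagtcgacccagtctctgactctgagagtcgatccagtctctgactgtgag
In Ifit1 the matches begin 104 and 85 bases before the start site, in Ifit3 156 and 122 bases, and in Isg15 3 overlapping matches begin 78, 72 and 66 bases before it. Of the 26 interferon genes with a promoter window 16 held a match, whereas 3.44% of all 32851 windows and 3.85% of the 9094 tested genes with a window did. Among tested genes with a window, 25 of 324 that rose (7.72%) and 5 of 259 that fell (1.93%) held it. The 25 include Ifit1, Ifit3, Isg15 and any other interferon genes that rose and held it. The share without them was not computed, so the 7.72% is not separate from the list. This element too was added after the values were seen.

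**Figure D5:**
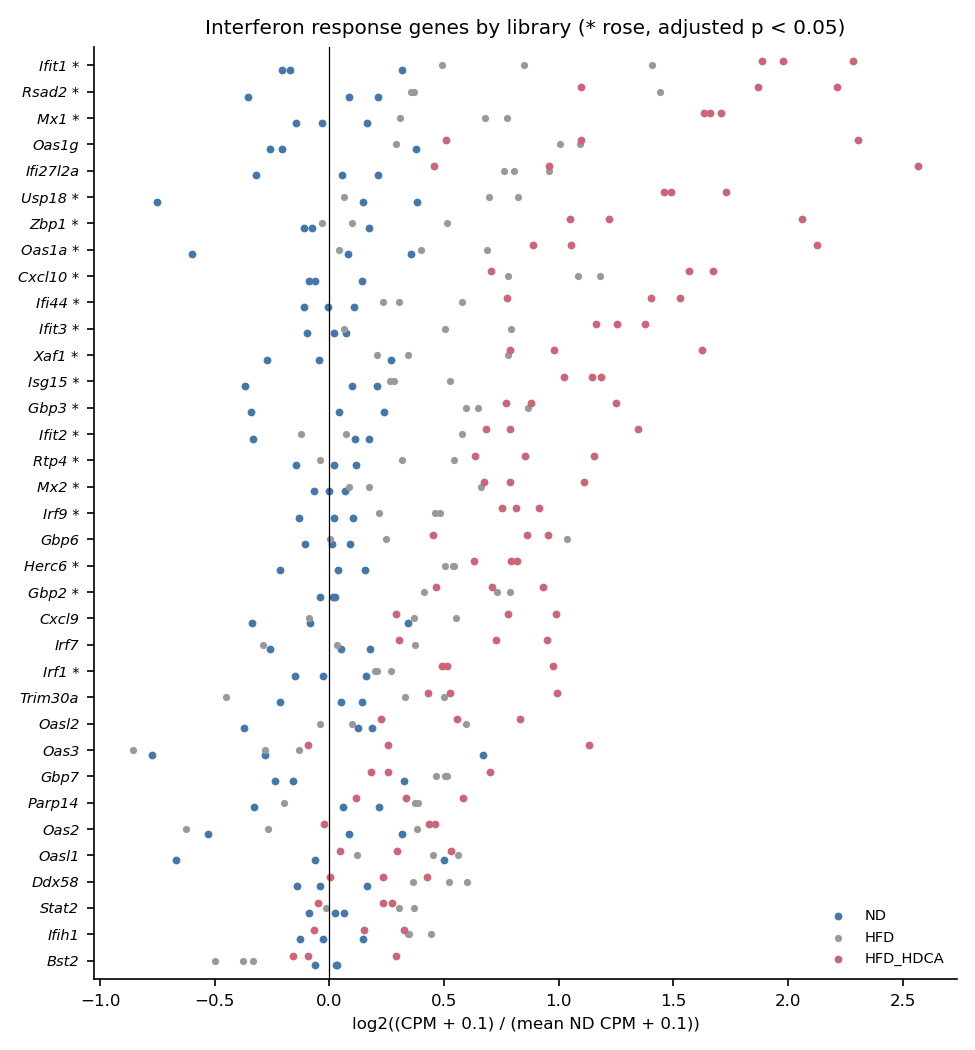
Each row is a gene of the interferon list, ordered by log2 fold change, and each point a library, placed by its CPM relative to the ND mean on a log2 scale with 0.1 CPM added. Red HFD_HDCA points lie to the right of blue ND points for the starred genes, which rose at an adjusted p under 0.05, and grey points are the HFD libraries.

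Antigen presentation and signalling molecules showed fewer calls. Of 30 genes 3 rose (10%, beside 3.65% of all genes) and 0 fell. Tap1, a peptide transporter for MHC class I, was at 19.8, 17.2 and 14.8 CPM in ND, 24.3, 28 and 22.7 CPM in HFD and 32.5, 32.1 and 27.3 CPM in HFD_HDCA (log2 fold change 0.83 ± 0.14, SE; adjusted p = 0.00868, edgeR). H2-T23, a nonclassical class I gene, rose from 146 ± 9.14 to 235 ± 43 CPM (mean ± SD over n = 3 per group, adjusted p = 0.0184, and 0.0989 without ND 1). Cd1d1, which presents lipid antigens to invariant NKT cells, was at 183, 191 and 205 CPM in ND, 208, 241 and 208 CPM in HFD and 321, 250.2 and 269 CPM in HFD_HDCA. All treated livers exceeded all others, by 0.54 ± 0.13 (SE; adjusted p = 0.034) over ND, with an adjusted p of 0.142 against HFD. The call held in 4 of 9 fits without a library, with an adjusted p of 0.0507 without HFD_HDCA 1 and 0.152 without ND 1. Of 20 cytokine and receptor genes 2 rose (10%), the chemokines Cxcl10, from 1.77, 2.06 and 1.74 to 3.09, 5.69 and 6.14 CPM, and Cxcl12, from 311, 419 and 382 to 603, 548 and 499 CPM (adjusted p = 0.0163 and 0.0358). Without ND 1 these were 0.0828 and 0.158, and 1 antigen presentation gene rose. Glp1r, the receptor of the gut hormone GLP-1, was too low to be tested. Of 31 acute phase genes 2 rose (6.45%), Serpina3m and Il1rn, and 2 fell (6.45%), Steap4 and Cebpd. Their median log2 fold change was 0.68, and 22 had positive values. At an unadjusted p under 0.05 (edgeR), 13 were higher and 6 lower. The summed level was 71659 CPM in HFD_HDCA 1, 35599 and 35703 CPM in the other treated livers and 34586 to 41442 CPM in ND. Serpina3m, a serine protease inhibitor gene, differed by 1.41 in the counts (adjusted p = 0.0119, edgeR) and by 0.52 on the log2(FPKM + 1) scale, where it was not called (adjusted p = 0.153, limma). Saa1, high only in HFD_HDCA 1 among the treated livers, was not called (adjusted p = 0.124). Without HFD_HDCA 2, 9 acute phase genes rose, and without ND 1, 1 rose and 0 fell. Of 37 complement and coagulation genes 3 fell (8.11%, beside 2.82% of all genes) and 0 rose, Masp1, a lectin pathway protease, going from 86.8 ± 1.88 to 55.8 ± 5.44 CPM (mean ± SD over n = 3 per group, adjusted p = 0.0114, and 0.0541 without ND 1). Without HFD_HDCA 1, 7 of them fell, and without ND 1, 0.

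Markers of cell types other than hepatocytes gave few calls, and in bulk tissue fewer cells of a type and less RNA per cell cannot be told apart. Median log2 fold changes of immune markers were above 0, at 0.26 for macrophage and 0.57 for T, NK and NKT cell markers. The medians were 0.97 for B and plasma cell and 1.15 for neutrophil markers, beside 0.03 for all genes. Positive values were found in 19 of 21, 7 of 11, 7 of 8 and 4 of 4 tested markers in turn, beside 53% of all genes. Such a lean was not particular to immune markers, as ribosomal protein genes also had a median of 0.26, with 25 of 29 positive. Macrophage markers had 2 higher and 0 lower at an unadjusted p under 0.05 (edgeR), beside 26.1% of all genes in either direction. Of 21 tested macrophage markers 1 rose, Ccr2, at 0.833, 0.976 and 1.45 CPM in ND and 3.63, 1.92 and 3.01 CPM in HFD_HDCA (adjusted p = 0.0498, and 0.184 without ND 1), and the summed level was 765 to 894 CPM in ND and 693 to 1321 CPM in HFD_HDCA. Of 25 T, NK and NKT cell markers 11 were high enough to test, and 0 rose and 0 fell by edgeR against 0 and 1 by DESeq2 (2 higher and 1 lower at an unadjusted p under 0.05), with a summed level of 15.9 to 36.3 CPM in ND and 12.6 to 16.1 CPM in HFD_HDCA. Cd3d, a CD3 chain gene of the T cell receptor complex, was at 0.052, 0.108 and 0.289 CPM in ND and 0.666, 0.581 and 0.421 CPM in HFD_HDCA (adjusted p = 0.0743). B cell and neutrophil markers had 0 and 0 rises among 8 and 4 tested and no falls, by edgeR and by DESeq2, with 4 and 1 higher and 0 and 0 lower at an unadjusted p under 0.05. The neutrophil markers summed to 17.7 CPM in HFD_HDCA 1 and at most 6.39 CPM in the other treated livers and 4.94 CPM in ND. Of 20 sinusoidal endothelial markers none was called by edgeR or by DESeq2, and the median log2 fold change was -0.43. At an unadjusted p under 0.05, 8 were lower and 1 higher, beside 26.1% of all genes in either direction. In the fit of only the 6 libraries 6 fell, and 4 without HFD 2. Their summed level was 845 to 967 CPM in ND and 710.4 to 794 CPM in HFD_HDCA, without overlap. Of 26 stellate cell and matrix markers Col14a1, a fibril-associated collagen gene, fell from 60.3, 70.2 and 59.3 to 45.1, 41.8 and 39.2 CPM (adjusted p = 0.0367, and 0.135 without ND 2 and 0.0566 on the log2(FPKM + 1) scale). The part of these marker levels in the results above was not tested. Car3, a carbonic anhydrase abundant in adipocytes, muscle and liver, fell from 3707, 4117 and 4579 to 986, 1686 and 1747 CPM (log2 fold change -1.49 ± 0.25, SE; adjusted p = 0.00915), with HFD at 3321, 5657 and 3947 CPM. Markers specific to adipocytes or pancreas were at low levels, with Cfd at most 0.782 CPM in treated livers and Cela2a at most 2.12 CPM.

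Several processes showed little change. Ribosomal protein genes had 0 rises and 0 falls among 29 by edgeR and by DESeq2 (median 0.26), with 5 higher and 0 lower at an unadjusted p under 0.05. Without HFD_HDCA 2, 7 rose. Of 28 cell cycle genes 1 rose, Gadd45a, a growth arrest gene, from 1.3, 1.08 and 1.79 to 4.18, 5.58 and 4.15 CPM beside 4.06, 3.89 and 3.65 CPM in HFD (adjusted p = 0.00412 against ND). Of 26 ER stress and ATF4 genes 1 rose, Sesn2, a stress-responsive sestrin, from 7.96, 11.1 and 8.56 to 14.9, 19.5 and 17.1 CPM (adjusted p = 0.0107, and 0.0617 without ND 1). Of 20 clock genes Nampt, an NAD synthesis enzyme under clock control, rose (adjusted p = 0.0473, and 0.184 without ND 1) and Per2, a clock repressor, fell, from 18.4, 8.46 and 11.7 to 3.51, 4.24 and 5.84 CPM (adjusted p = 0.0372, and 0.124 without ND 1; -0.67 on the log2(FPKM + 1) scale against -1.5 in the counts, adjusted p = 0.0921). The hour at which livers were taken is not given in the labels. Of 20 iron and heme genes 1 rose, Id1, a BMP target, from 3.49, 4.5 and 3.24 to 7.27, 17.5 and 12.9 CPM (adjusted p = 0.0244, and 0.113 without ND 1). FXR and feedback genes differed from these lists in having a larger share of calls. Among 12 tested, 2 rose (16.7%, beside 3.65% of all genes), Nr1h4 and Apoc2. Another 3 fell (25%, beside 2.82% of all genes), Fgfr4, Hnf4a and Abcb11. Without ND 1 the counts that rose and fell were 0 and 1. Cholangiocyte, erythroid and immediate early lists had 0 rises and 0 falls by edgeR and by DESeq2 among 11, 3 and 12 tested genes, with 2, 1 and 1 higher and 1, 1 and 1 lower at an unadjusted p under 0.05. In all, the 46 lists held 168 of the 815 called genes, and the other 647 belong to none of them.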

How the data were processed

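Livers of 9 mice were sequenced, 3 for each diet, from libraries made with a TruSeq RNA kit, per the labels' protocols. The authors deposited whole-number read counts per gene symbol from HTSeq for each library, and separate Cufflinks tables with FPKM values per gene, per the file headers. Tools named in the submitters' processing notes are TopHat 1.3.2 and Cufflinks 2.0.2, with mm10 as genome build, and the strand setting of the counting is not given in the sources used here. The count files close with 5 read classes, which were kept out of library sizes and tests: on average 10.99% of ND and 10.35% of HFD_HDCA reads were on no feature, 1.531% and 1.14% were ambiguous, 4.106% and 4.028% were not aligned, and those aligned to more than 1 place are given in the results. Counts of all 9 libraries were fitted in 1 model with edgeR 4.0.16 (TMM, filterByExpr with a minimum count of 10, robust quasi-likelihood test), with the contrast HFD_HDCA minus ND and Benjamini-Hochberg adjustment over 12587 genes, and called at 0.05. The contrasts with HFD come from the same fit. CPM values use effective library sizes. Alternatives were DESeq2 1.42.0, RLE scaling, other filters, only 6 libraries, limma 3.58.1 on log2(FPKM + 1) or log2(FPKM + 0.1), a replicate block and leaving out each library.

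The comparison and its 46 gene lists were chosen with earlier results of these data known, so lists are described by counts and medians without a set test. Genes named are the 12 largest rises and 12 largest falls among called genes whose libraries do not overlap and whose higher group averages at least 2 CPM (no predicted-gene symbols), up to 5 members per list with the smallest p, and fixed genes of lipid, bile acid and glucose metabolism, a few of which are not reported here. Promoters are from RefSeq (GRCm38.p6): 192 of 241 genes matched.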

Additional observations from a re-analysis of the deposited data

How the results depend on the processing

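DESeq2 called 1398 genes (729 rose and 669 fell), including 813 of the 815. limma on log2(FPKM + 1) with no filter on low values called 527 (301 rose and 226 fell). Leaving out 1 library gave 196 to 1213 called genes, 97 to 795 that rose and 99 to 483 that fell. RLE scaling, both other filters on counts, the 6 libraries alone, and both filtered FPKM fits gave 678 to 1002 called genes. No called gene changed sign in any fit of the counts. In the FPKM fits 1 did: the Cyp2a4 log2 fold change was -1.53 with log2(FPKM + 1), -1.64 with log2(FPKM + 0.1) and -1.53 with no filter, and the cause was not tested. Named calls lost with log2(FPKM + 1) were 8 of the 109 tested there: Ccrn4l, Col14a1, Cyp2a4, Cyp2c40, Gm15441, Per2, Rgs16 and Serpina3m. The sign of Slco1a1, Pklr, G6pc and Cela2a, which were not called, depended on the library left out. The Slco1a1 log2 fold change ranged from -0.047 to 0.23, the Pklr log2 fold change from -0.15 to 0.037, the G6pc log2 fold change from -0.10 to 0.0016 and the Cela2a log2 fold change from -1.02 to 0.91, the last also -0.22 with log2(FPKM + 0.1). Replicate numbers are shared between diets, but the deviations of same-numbered ND and HFD_HDCA libraries correlated at 0.153, 0.0451 and -0.000319, not all over 0.1, and ND 2 and ND 3 correlated better with another number than with their own, so the numbers were not taken to pair the libraries. With a replicate block 715 genes were called, 381 that rose and 334 that fell, and 13 of the 111 named calls had adjusted p of 0.0549 to 0.111, among them Cd1d1, Apoa4, Selenbp2, Cyp4a12b, Ly6d and Rgs16. At this depth, levels near the 0.156 to 0.182 CPM that 3 reads give rest on counting error.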

Other observations

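Other promoter elements were searched in the same windows on both strands. A direct repeat of AGGNCA with 1 base between, the kind that PPARα and RXR bind, with the fourth base of each copy free, was held by 0.381% of the 32851 windows, by 0 of the 22 omega and peroxisomal oxidation genes with a window and by 0 of the 24 mitochondrial ones. An element this rare would seldom be met in lists of this size, and the windows are short, so no conclusion is drawn from the counts of 0. The sterol element TCACNCCAC was held by 1.24% of windows and by 1 of 21 fatty acid synthesis genes with a window. The STAT5 element TTCNNNGAA was held by 8.3% of windows, by 7.1% of the tested genes that rose and by 8.88% of those that fell.

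The 10 most abundant genes took 15.73 ± 0.414% of reads on genes in ND and 18.8 ± 0.627% in HFD_HDCA (SD, n = 3 each; exact two-sided permutation p = 0.1, the smallest that 3 against 3 can give).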
